A study of Mus musculus with 6 samples.

Results

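The 9 genes described here are the 7 sirtuins, Sirt1 to Sirt7, together with Nampt and Nmnat3, which encode enzymes that make the NAD that sirtuins consume. They were chosen by gene symbol, and all 9 were found among the 16448 genes of a table of RNA sequencing from adult mouse cardiomyocytes (CMs). The study asked what happens to heart muscle cells that cannot import long-chain fatty acids into mitochondria for oxidation. CtrlCre mice were αMHC-Cre pos/+;Cpt1b +/+ and Cpt1bcKO mice were αMHC-Cre pos/+;Cpt1b fl/fl, with 3 samples per genotype. Both groups carried the Cre transgene, which the αMHC (Myh6) promoter expresses in CMs from embryonic stages, on a C57BL/6 background, and the controls were littermates. Cpt1b, the muscle form of carnitine palmitoyltransferase, was therefore deleted in CMs long before the samples were taken at 8 to 12 weeks of age. CMs were freed from the ventricles by enzyme perfusion and enriched by low-speed centrifugation without sorting, so the samples could hold other heart cells. The study names as many mice per genotype for its comparison of expressed genes as there are samples, while the labels do not tie samples to animals. P values measure the spread between these samples.

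Sirtuins remove acetyl and other acyl groups from lysines of proteins, and each reaction breaks down 1 molecule of NAD and releases nicotinamide. Nampt converts nicotinamide to nicotinamide mononucleotide, the slow step of the salvage route, and the Nmnat enzymes turn that product back into NAD. Sirt1, Sirt6 and Sirt7 act mainly in the nucleus, Sirt2 mainly in the cytosol, and Sirt3, Sirt4 and Sirt5 in mitochondria, where Sirt3 deacetylates enzymes of fatty acid oxidation. In the heart, salvage from nicotinamide is the main source of NAD.

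The values are normalized counts, that is reads per gene scaled between libraries by the authors and rounded to whole numbers. They summed to 13393411 to 31722217 per sample, of which the mitochondrial rRNA gene mt-Rnr2 took 63.2% to 64.6% in the CtrlCre samples and 61.8%, 72.6% and 80.8% in Cpt1bcKO samples 1, 2 and 3. In the 4 samples where the spacing of low values could be read, 1 sequenced read was worth 0.682 to 1.29 normalized counts, so a member with about 10 normalized counts rested on roughly that many reads. All 9 defining CM genes examined had at least 3492 normalized counts in every sample. CtrlCre sample 1 stood apart in cells of vessels: 8 endothelial markers summed to 1464 in it against 2785 to 3287 in the other samples, and 6 mural cell markers to 605 against 1099 to 1985. Both samples numbered 1 also differed from the rest in transcripts of the sex chromosomes: Xist, which is made from the inactive X, had 957 in CtrlCre sample 1 and 1080 in Cpt1bcKO sample 1 against 23 to 78 in the other samples, and Ddx3y of the Y chromosome had 0 and 0 against 576 to 710. Each genotype thus held 1 sample of this kind, and values without both are given for the members and for Nmrk2 and Per2. The targeted gene Cpt1b (ENSMUSG00000078937, mm10, chr15:89416405-89425863, minus strand) had 1861, 893 and 1443 normalized counts in CtrlCre samples 1, 2 and 3 and 211, 353 and 285 in Cpt1bcKO samples 1, 2 and 3. It fell by 2.27 on the log2 scale (SE 0.267, limma adjusted P = 0.00338), although the table counts the whole gene and the floxed exons were not counted apart. In GENCODE vM21 another gene model, Gm44502, covers 81.4% of its exon bases.

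Of the 9 members, 1 was called at an adjusted P under 0.05, and it was lower in Cpt1bcKO CMs. Among all 11364 genes tested, 0.906% were called lower and 0.66% higher. The called member was Nampt, the enzyme that sets the pace of NAD salvage, and the plot of members by sample shows it beside the others. None of the 7 sirtuins passed, either at an adjusted P or at an unadjusted P under 0.05, a threshold met by 13.9% of all genes tested, 6.66% with higher and 7.22% with lower values. All 9 members passed the filter on low values, and the median log2 difference over them was 0.13, against −0.0013 over all genes tested.

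Nampt (ENSMUSG00000020572, mm10, chr12:32820335-32853349, plus strand, protein coding) had 1577, 1434 and 1259 normalized counts in CtrlCre samples 1, 2 and 3. The Cpt1bcKO samples 1, 2 and 3 had 937, 560 and 673. Every Cpt1bcKO sample was below every CtrlCre sample, as in 9.6% of all genes tested, while no member lay wholly above its controls, as 9.13% of all genes did. The means were 1423 ± 159 and 723 ± 193 (SD, n = 3 each). Nampt fell by 1.003 on the log2(value + 1) scale (SE 0.192, 95% interval −1.43 to −0.58, limma adjusted P = 0.0310), which is 0.499 times the control level with an interval of 0.371 to 0.671. In bulk samples such as these, fewer cells of a type and less RNA per cell cannot be told apart. Only 262 of the 11364 genes had a lower log2 difference. The two-sided exact permutation test of Nampt gave P = 0.1, the smallest that 3 against 3 samples allow.

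**Figure D1:**
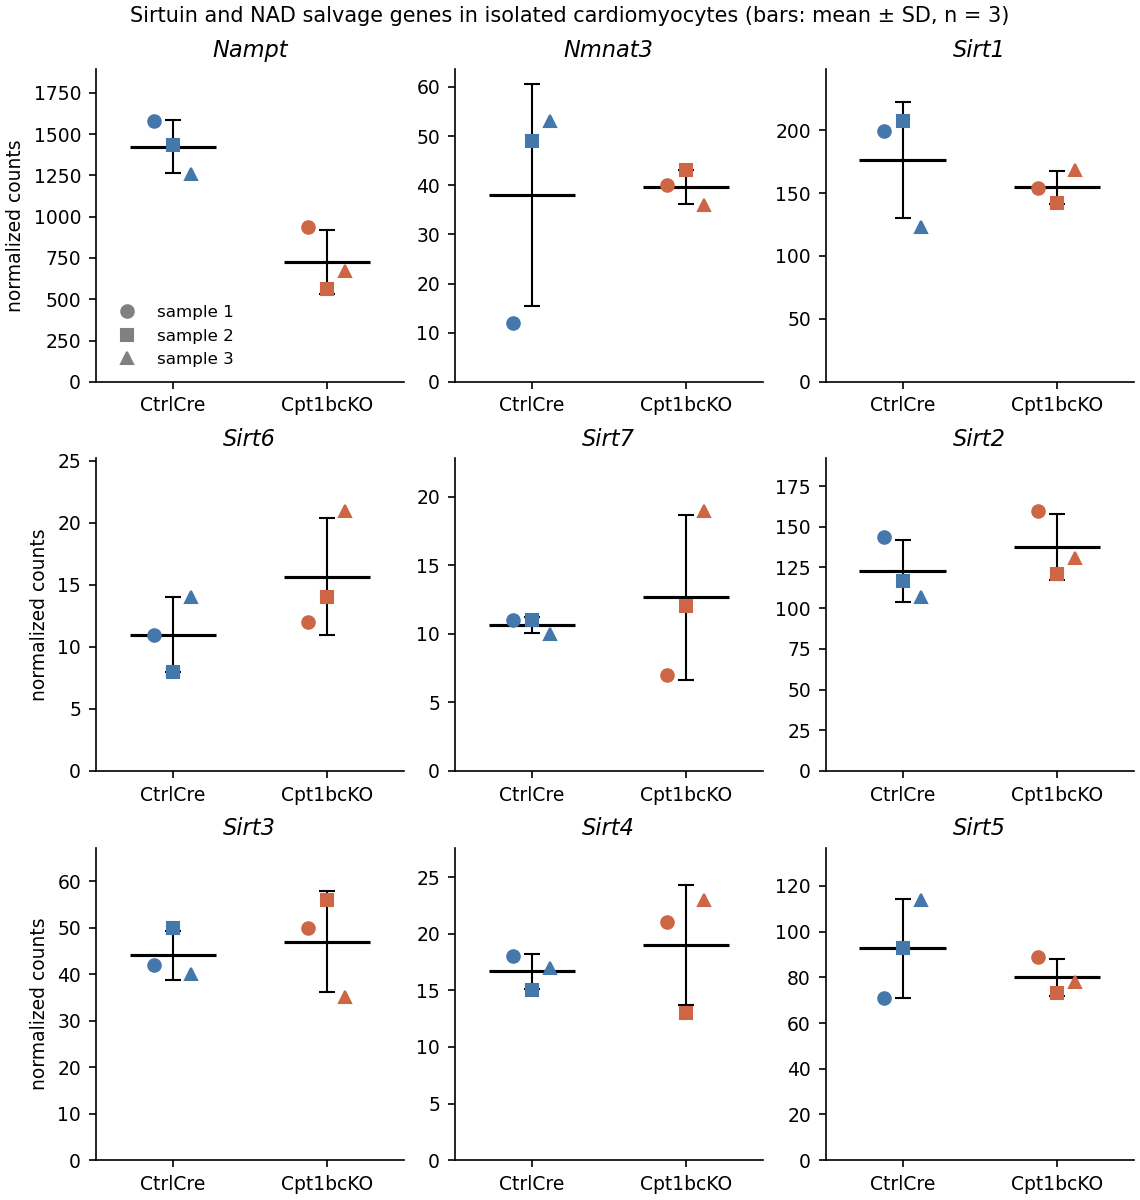
Normalized counts (y axis, each panel from 0) of the 2 NAD salvage genes and the 7 sirtuins in CtrlCre (blue) and Cpt1bcKO (orange) CMs, with 1 point per sample, the symbol shape giving the sample number, and black bars for the mean ± SD of 3 samples. In the Nampt panel the Cpt1bcKO points lie between 560 and 937 and all CtrlCre points lie above them, whereas in the other 8 panels the groups overlap.

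The call for Nampt rested on all but 1 of the samples, while its direction did not. Without CtrlCre sample 1 the log2 difference was −0.93 (limma adjusted P = 0.106), without CtrlCre sample 2 it was −0.99 (limma adjusted P = 0.116), and without CtrlCre sample 3 it was −1.09 (limma adjusted P = 0.0835). Without Cpt1bcKO sample 2, the lowest in Nampt, it was −0.83 (limma adjusted P = 0.159), and without Cpt1bcKO sample 3 it was −0.97 (limma adjusted P = 0.0869). Leaving out Cpt1bcKO sample 1, the highest of its group, gave −1.21 (limma adjusted P = 0.00337). Without both samples numbered 1 it was −1.13 (limma adjusted P = 0.00623). Scaling to the total without mitochondrial and rRNA genes moved the median of all genes by 0.11, and Nampt then stood at −0.89 with a limma adjusted P of 0.0562. That scaling also turned the split of all calls from 75 higher and 103 lower to 103 higher and 74 lower.

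Fibroblast markers moved with genotype beside Nampt, while the sums of endothelial, mural and leukocyte markers overlapped between the genotypes. The 8 fibroblast markers summed to 498 to 785 in CtrlCre and 1108 to 1338 in Cpt1bcKO samples, none of them was at 0, and all 7 that could be tested were higher at an unadjusted P under 0.05. Col1a1, a chain of fibrillar collagen, and Lum, a small matrix proteoglycan, also passed at an adjusted P (limma adjusted P = 0.0143 for each). Among all genes tested, 6.66% were higher and 7.22% lower at an unadjusted P under 0.05, and 0.66% and 0.906% at an adjusted P. Of the 9 CM markers, 8 had a negative log2 difference, 2 were lower at an unadjusted P under 0.05 and none was called at an adjusted P. Those 2 were Tnni3, cardiac troponin I (log2 difference −0.996, unadjusted P = 0.00503), and Pln, the SERCA regulator phospholamban (log2 difference −0.85, unadjusted P = 0.00144), with differences near that of Nampt. Mybpc3 (log2 difference 0.33, limma adjusted P = 0.410) lay wholly above its controls, and 3 CM markers lay wholly below. Among all genes tested, 9.13% lay above and 9.6% below. The study reports lower expression of maturation and contraction genes in the knockout, so such markers do not measure CM content alone. The sum of all 9 CM markers ran from 501691 to 609812 in CtrlCre and from 322435 to 557795 in Cpt1bcKO samples. The part of cell makeup in the Nampt result was not tested. Cpt1bcKO samples 2 and 3, the lowest in Nampt (560 and 673), were also those with a higher share of mt-Rnr2 than any control (72.6% and 80.8%), and the part of that share was not tested.

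**Figure D2:**
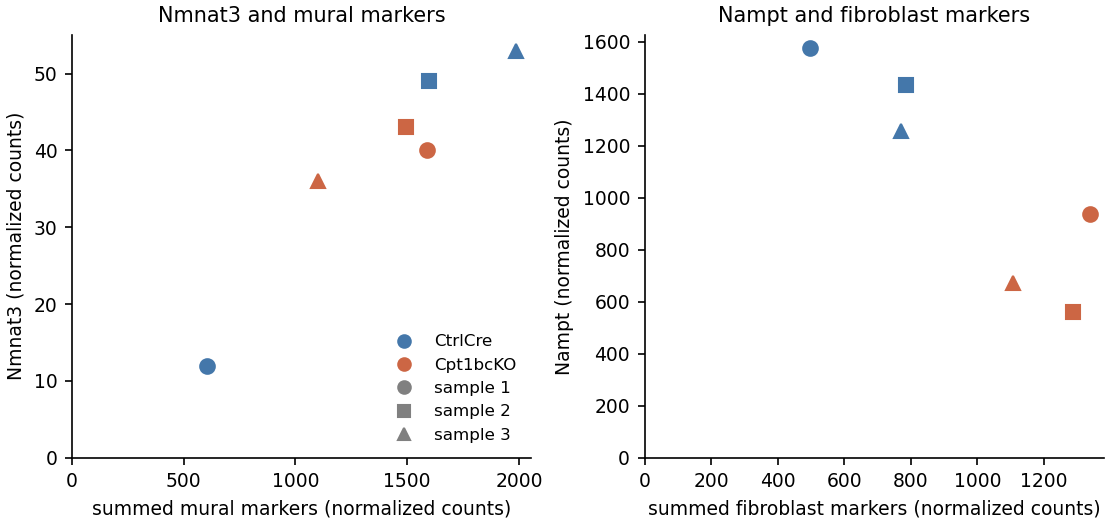
Normalized counts of Nmnat3 against the sum of 6 mural cell markers (left) and of Nampt against the sum of 8 fibroblast markers (right), with 1 point per sample, CtrlCre in blue, Cpt1bcKO in orange and the symbol shape giving the sample number. CtrlCre sample 1 has the lowest Nmnat3 value, 12, and the lowest mural sum, 605, and the fibroblast sums of the Cpt1bcKO samples, 1108 to 1338, all lie to the right of the CtrlCre samples.

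No exon of Nampt overlaps another gene in GENCODE vM21, and no other gene has a transcript stretch of 75 bases that is at least 95% identical to it. The 250 bases before its start are shown here because Nampt is the member that changed, and those of Sirt1, the sirtuin with the highest mean level per kb in both groups, though its range overlapped that of Sirt2, are shown for comparison. Both are from RefSeq on GRCm38.p6, printed 5′ to 3′ on the strand of the gene. The window of Nampt is chr12:32820085-32820334 on the plus strand, and that of Sirt1 is chr10:63339036-63339285 on the minus strand, inside the longer gene model of the count table. Capitals mark matches to the GC box GGGCGG on either strand and to the E-box CACGTG, which reads the same on both strands.
Nampt: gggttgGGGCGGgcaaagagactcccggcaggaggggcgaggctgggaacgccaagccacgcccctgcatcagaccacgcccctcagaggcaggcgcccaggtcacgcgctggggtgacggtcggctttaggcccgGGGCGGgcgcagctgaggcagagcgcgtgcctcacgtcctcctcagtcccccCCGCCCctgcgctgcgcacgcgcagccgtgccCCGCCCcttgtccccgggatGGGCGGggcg
Sirt1: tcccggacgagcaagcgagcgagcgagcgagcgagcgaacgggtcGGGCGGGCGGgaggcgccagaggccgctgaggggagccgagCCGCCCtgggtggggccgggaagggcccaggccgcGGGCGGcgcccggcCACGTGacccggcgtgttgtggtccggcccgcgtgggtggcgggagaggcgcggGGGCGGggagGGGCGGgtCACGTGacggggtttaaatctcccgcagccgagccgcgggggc
The window of Nampt held 5 GC boxes, no E-box and 27 CpG dinucleotides. That of Sirt1 held 6 GC boxes, overlapping ones counted, 2 E-boxes and 39 CpG dinucleotides. Among 32851 mouse promoter windows of this length, 32.7% held a GC box and 6.02% an E-box, and the median number of CpG dinucleotides was 6. These are matches of letters only, and binding was not analysed here.

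Among the nuclear sirtuins, Sirt1 (ENSMUSG00000020063, mm10, chr10:63319005-63381704, minus strand), which deacetylates histones, FOXO proteins and PGC-1α, had 199, 207 and 123 normalized counts in the CtrlCre samples and 154, 142 and 168 in the Cpt1bcKO samples. The Cpt1bcKO values lay inside the range of the controls. The log2 difference was −0.15 with a 95% interval of −0.64 to 0.33 (limma adjusted P = 0.801), so a level between 0.642 and 1.26 times that of the control was within its error. It ran from −0.02 without CtrlCre sample 2 to −0.39 without CtrlCre sample 3 (unadjusted P = 0.0718), and was −0.05 without CtrlCre sample 1 or both samples numbered 1. Sirt6 (ENSMUSG00000034748, mm10, chr10:81621785-81627797, minus strand), a deacetylase of histone H3 with a part in DNA repair, had 11, 8 and 14 normalized counts against 12, 14 and 21. The groups overlapped and the log2 difference was 0.47, the highest among the members, with an interval of −0.46 to 1.40 (limma adjusted P = 0.671).

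Sirt7 (ENSMUSG00000025138, mm10, chr11:120618372-120625014, minus strand), which acts at ribosomal RNA genes in the nucleolus, had 11, 11 and 10 normalized counts in the CtrlCre samples and 7, 12 and 19 in the Cpt1bcKO samples. The Cpt1bcKO samples reached both below and above the controls, and the log2 difference was 0.13 with an interval of −0.90 to 1.16 (limma adjusted P = 0.932). The sample with the highest values of both Sirt6 and Sirt7 was Cpt1bcKO sample 3, which also had the highest share of mt-Rnr2. The part of that share was not tested, and without that sample the log2 difference was 0.25 for Sirt6 and −0.19 for Sirt7. Without both samples numbered 1 it was 0.64 for Sirt6 and 0.49 for Sirt7. At these low values the SE was 0.419 for Sirt6 and 0.463 for Sirt7, and any change inside those intervals was within the error. The intervals do not give the smallest change that could have been detected. Exons of Mafg on the same strand cover 2.41% of the exon bases of Sirt7.

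Sirt2 (ENSMUSG00000015149, mm10, chr7:28766735-28788661, plus strand), the cytosolic member that deacetylates tubulin, had 144, 117 and 107 normalized counts in the CtrlCre samples and 160, 121 and 131 in the Cpt1bcKO samples. Its groups overlapped, with a log2 difference of 0.16 and an interval of −0.27 to 0.59 (limma adjusted P = 0.764). This was the narrowest interval among the sirtuins, 0.830 to 1.51 times the control. Leaving out 1 sample gave 0.05 (Cpt1bcKO sample 1) to 0.28 (CtrlCre sample 1), and leaving out both samples numbered 1 gave 0.17.

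Of the mitochondrial sirtuins, Sirt3 (ENSMUSG00000025486, mm10, chr7:140863670-140882309, minus strand), the main deacetylase of the matrix, had 42, 50 and 40 normalized counts in the CtrlCre samples and 50, 56 and 35 in the Cpt1bcKO samples. Cpt1bcKO sample 3 was below all controls and Cpt1bcKO sample 2 above all of them. The log2 difference was 0.07, with an interval of −0.50 to 0.65 (limma adjusted P = 0.932). It was 0.27 without Cpt1bcKO sample 3, −0.06 without Cpt1bcKO sample 2 and −0.01 without both samples numbered 1. On the other strand, exons of Ric8a cover 7.0% and exons of Psmd13 5.73% of the exon bases of Sirt3, and whether reads were counted by strand is not given in the sources used here.

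Sirt4 (ENSMUSG00000029524, mm10, chr5:115478010-115484725, minus strand), which acts on glutamate dehydrogenase and removes acyl groups from enzymes of leucine breakdown, had 18, 15 and 17 normalized counts in the CtrlCre samples. The Cpt1bcKO samples had 21, 13 and 23, which spread to both sides of the controls. The log2 difference was 0.14, with an interval of −0.65 to 0.94 (limma adjusted P = 0.895). It ran from −0.0059 without Cpt1bcKO sample 3 to 0.38 without Cpt1bcKO sample 2, and was 0.11 without both samples numbered 1. Sirt5 (ENSMUSG00000054021, mm10, chr13:43365496-43395203, plus strand), which removes succinyl, malonyl and glutaryl groups, had 71, 93 and 114 normalized counts against 89, 73 and 78. All Cpt1bcKO values lay within the control range, and the log2 difference was −0.19 with an interval of −0.68 to 0.31 (limma adjusted P = 0.761). It was −0.03 without CtrlCre sample 3, −0.37 without CtrlCre sample 1 and −0.44 without both samples numbered 1 (unadjusted P = 0.0752). Transcripts of Sirt5 share stretches of at least 75 bases at 95% identity or more with 335 other genes, and reads on several genes or places of the genome were left out by the authors.

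Nmnat3 (ENSMUSG00000032456, mm10, chr9:98296583-98420438, plus strand), the adenylyltransferase that is placed in mitochondria, had 12, 49 and 53 normalized counts in the CtrlCre samples and 40, 43 and 36 in the Cpt1bcKO samples. CtrlCre sample 1 was far below the other 5 samples. Over all samples the log2 difference was 0.31, with an interval of −0.76 to 1.38 (limma adjusted P = 0.822). Without CtrlCre sample 1 it turned to −0.36 (limma adjusted P = 0.685), without both samples numbered 1 it was −0.36 (limma adjusted P = 0.546), and every Cpt1bcKO sample then lay below both remaining controls. How many of all genes separate with so few samples was not counted, and over all samples the groups of Nmnat3 overlapped. CtrlCre sample 1 was also the sample with few vessel cell transcripts, as the plot of Nmnat3 against mural markers shows, and the part of those cells was not tested.

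**Figure D3:**
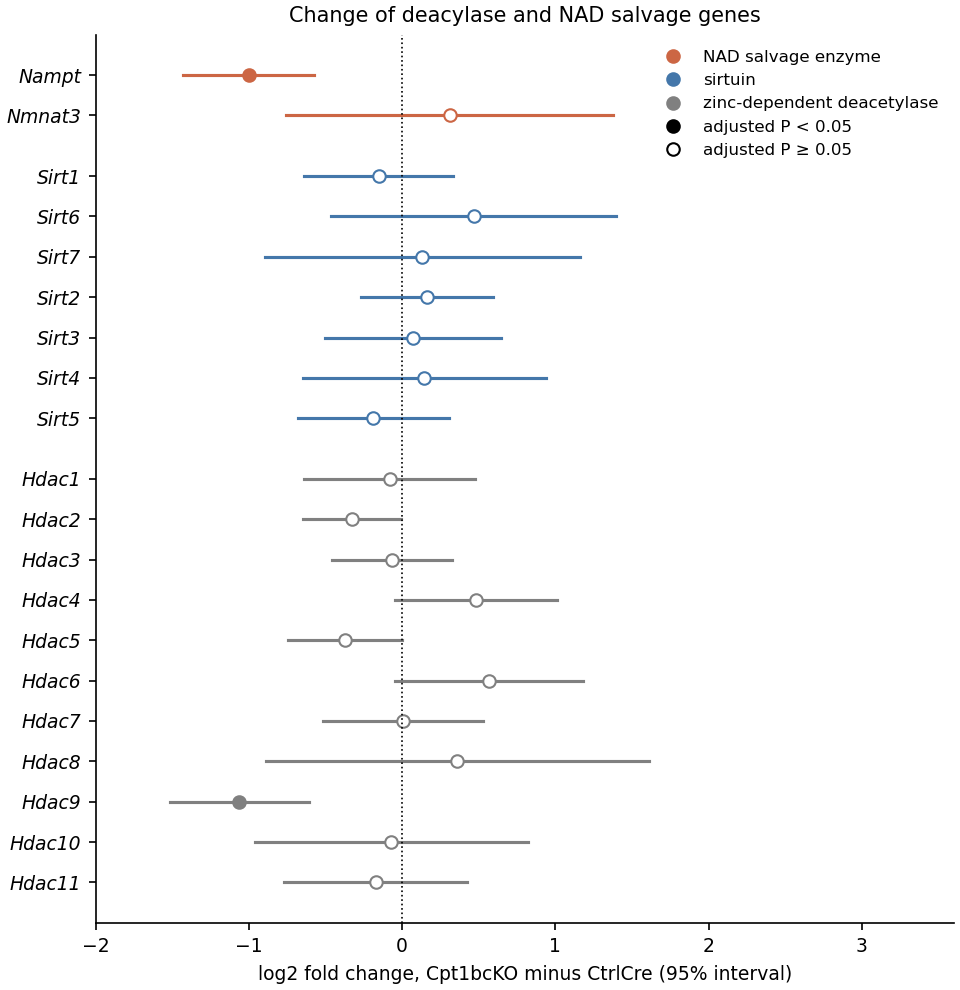
Log2 fold change (x axis, Cpt1bcKO minus CtrlCre) with its 95% interval for the 2 NAD salvage genes (orange), the 7 sirtuins (blue) and the 11 zinc-dependent deacetylases (grey), where filled points passed an adjusted P under 0.05. Nampt at −1.003 and Hdac9 at −1.06 are the filled points, and the intervals of all 7 sirtuins cross 0.

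The summed level of the 7 sirtuins overlapped between the genotypes. Their normalized counts added up to 496, 501 and 425 in the CtrlCre samples and to 493, 431 and 475 in the Cpt1bcKO samples. For each summed sirtuin count there were 3.18, 2.86 and 2.96 normalized counts of Nampt in the CtrlCre samples and 1.90, 1.30 and 1.42 in the Cpt1bcKO samples. This ratio is taken within a library and does not depend on how libraries were scaled, and the groups did not overlap in it. As the sirtuin sums overlapped, the ratio mostly restates the Nampt values, in which the groups did not overlap either. How many other genes would separate in such a ratio was not tested.

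Levels of different genes were compared as normalized counts per kb of exon. In CtrlCre CMs, Nampt stood first with 282 ± 31.5 (SD, n = 3), and Sirt1 followed with 33.1 ± 8.70, Sirt2 with 24.4 ± 3.80 and Sirt5 with 15.2 ± 3.53. Nmnat3, Sirt3 and Sirt4 lay close together at 7.59 ± 4.52, 7.37 ± 0.886 and 6.95 ± 0.637, and Sirt6 (3.95 ± 1.08) and Sirt7 (2.07 ± 0.112) were lowest. The ranges of Sirt1 and Sirt2 overlapped, as did those of Nmnat3 with Sirt3 and of Sirt3 with Sirt4, and the other neighbours in this order did not overlap.

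In Cpt1bcKO CMs the per-kb order was the same except within the close trio of Nmnat3 (7.93 ± 0.702), Sirt4 (7.92 ± 2.21) and Sirt3 (7.87 ± 1.81). Nampt remained first at 143 ± 38.3 normalized counts per kb, against 29.0 ± 2.44 for Sirt1 and 27.3 ± 4.02 for Sirt2. Sirt5 had 13.1 ± 1.34, Sirt6 5.63 ± 1.70 and Sirt7 2.46 ± 1.17. Here the range of Sirt6 also overlapped that of Sirt3.

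By Pearson's r of log2 values over the 6 samples, the genes most like Nampt of the 6796 genes whose mean reached 50 were Sertad2 (r = 0.998), Mut (r = 0.994), Acadsb (r = 0.993), Gata6 (r = 0.990) and Ogn (r = 0.989). The samples share genotype, library and scaling, so these values are a description. Acadsb, a dehydrogenase of branched-chain acyl-CoA breakdown, had 1511, 1318 and 1327 normalized counts in the CtrlCre samples and 925, 576 and 643 in the Cpt1bcKO samples, and it fell by 0.98 on the log2 scale (limma adjusted P = 0.0259). Mut, the methylmalonyl-CoA mutase, had 1054, 992 and 914 against 771, 590 and 604 (log2 difference −0.60, limma adjusted P = 0.0933). Like Mut, Sertad2, Gata6 and Ogn did not pass at an adjusted P, with log2 differences of −0.72, −0.55 and −0.59. Within the knockout, Sertad2, Mut, Acadsb, Gata6 and Ogn were all highest in Cpt1bcKO sample 1 and lowest in Cpt1bcKO sample 2, like Nampt. They were chosen for their correlation with Nampt over these same samples. The shared order therefore reflects that choice and is not a separate finding.

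Other genes that make or use NAD were read from 3 lists. None of the 35 that could be tested was called at an adjusted P by limma (background 1.57%), and 8 passed at an unadjusted P, 4 with higher and 4 with lower values in Cpt1bcKO CMs (background 13.9%). Groups that did not overlap were found for 4 genes above and 4 below their controls, beside 18.7% of all genes tested in either direction. The median log2 difference was 0.14, against −0.0013 over all genes tested.

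In the list of other NAD synthesis and salvage genes, 10 of 18 were in the table and 7 could be tested. All 7 had a positive log2 difference, beside 5655 of the 11364 genes tested. The difference was smaller than its SE for Nmrk1 (0.05), Nt5e (0.06), Nmnat1 (0.14) and Pnp (0.19). Nmrk2, the kinase that makes nicotinamide mononucleotide from nicotinamide riboside and so bypasses Nampt, had 52, 83 and 102 normalized counts in the CtrlCre samples and 409, 212 and 120 in the Cpt1bcKO samples. Every Cpt1bcKO sample was above every control, but they differed more than 3-fold among themselves. The log2 difference was 1.51, with an interval of 0.63 to 2.39 (unadjusted P = 0.00327, limma adjusted P = 0.107). Without Cpt1bcKO sample 3, its lowest in the knockout, it was 1.94 (limma adjusted P = 0.0293). Without Cpt1bcKO sample 1, its highest, it was 1.06 (limma adjusted P = 0.104), and without both samples numbered 1 it was 0.79 (limma adjusted P = 0.186). An antisense gene, Atcayos, shares 14.6% of the exon bases of Nmrk2, and its log2 difference was 0.25 (limma adjusted P = 0.564).

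Naprt, which starts NAD synthesis from nicotinic acid, had 8, 11 and 8 normalized counts against 11, 20 and 34, with a log2 difference of 1.06 (unadjusted P = 0.0455, limma adjusted P = 0.348). Nadsyn1, which completes that route by amidation, had 4, 9 and 17 against 14, 20 and 30, with a log2 difference of 1.15 (limma adjusted P = 0.368). The groups touched in Naprt and overlapped in Nadsyn1, and Cpt1bcKO sample 3 was highest in both genes. Without it Naprt was at 0.68 (unadjusted P = 0.200), and without CtrlCre sample 1 Nadsyn1 was at 0.67 (unadjusted P = 0.187). Nmnat1, the nuclear adenylyltransferase, had 156, 127 and 109 against 166, 120 and 145 (log2 difference 0.14, limma adjusted P = 0.807), and Nmnat2 stayed below the filter with at most 5 normalized counts.

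**Figure D4:**
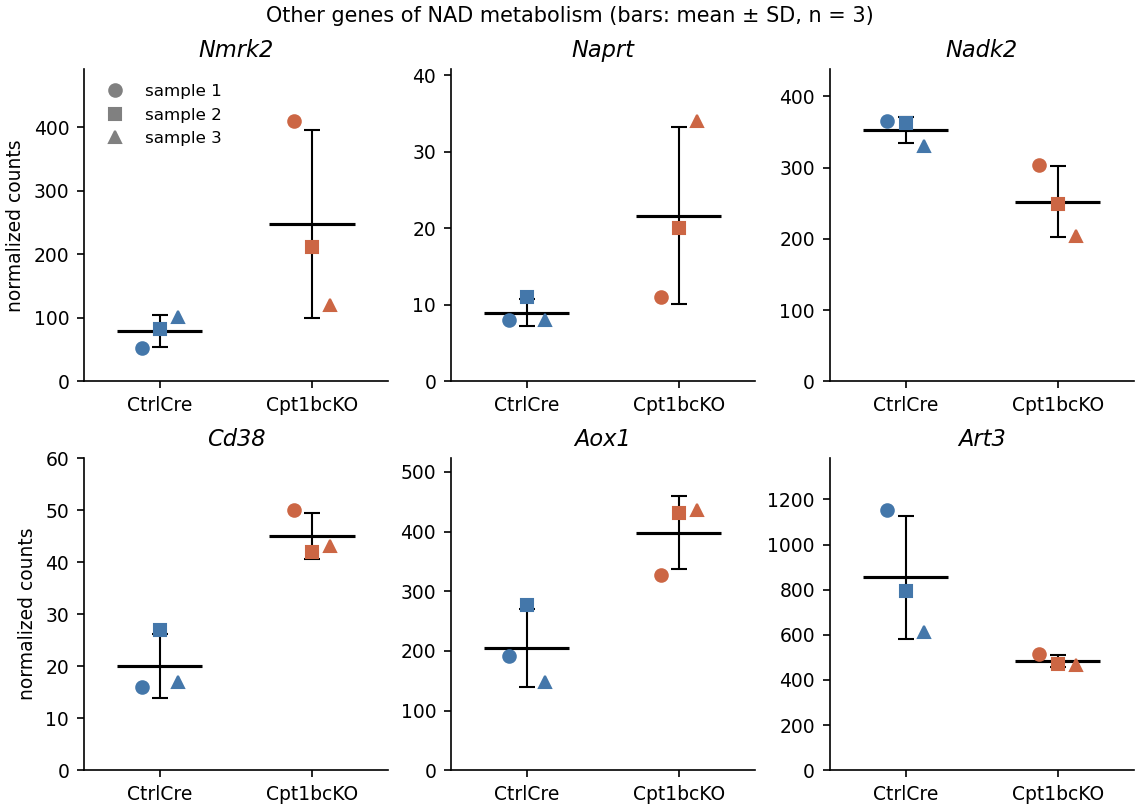
Normalized counts (y axis, each panel from 0) of 6 other genes of NAD metabolism in CtrlCre (blue) and Cpt1bcKO (orange) CMs, with 1 point per sample, the symbol shape giving the sample number, and black bars for the mean ± SD of 3 samples. The groups do not overlap for Nmrk2, Nadk2, Cd38, Aox1 and Art3, which were named for their low P values, and Nmrk2 spreads from 120 to 409 within the Cpt1bcKO samples.

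Among genes that phosphorylate, move or exchange NAD, 9 of 12 could be tested. Nadk2, the mitochondrial NAD kinase, had 365, 362 and 331 normalized counts in the CtrlCre samples and 303, 249 and 204 in the Cpt1bcKO samples (log2 difference −0.50, unadjusted P = 0.0162, limma adjusted P = 0.224). Gja1, the gap junction protein connexin 43, whose hemichannels can pass NAD, had 5129, 4970 and 4644 against 3630, 3458 and 3035 (log2 difference −0.55, limma adjusted P = 0.0928). The groups did not overlap in either gene, and neither passed at an adjusted P, although Gja1 was at the threshold without Cpt1bcKO sample 1 (limma adjusted P = 0.04998). Gja1 passed in 2 of 15 alternatives, and with 1 sample left out its limma adjusted P reached 0.310. Nadk, the cytosolic NAD kinase, had 55, 56 and 72 against 72, 95 and 83, with a log2 difference of 0.45 (limma adjusted P = 0.395).

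Nnt, the transhydrogenase of the inner mitochondrial membrane, had 9, 20 and 8 normalized counts in the CtrlCre samples and 6, 15 and 25 in the Cpt1bcKO samples. The groups overlapped. In GENCODE vM21 a second Nnt gene model covers 47.5% of its exon bases. The authors left out reads that fell on several genes, and whether their annotation held that model is not given in the sources used here, so the level of Nnt is uncertain.

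Among the other enzymes that consume NAD or clear nicotinamide, 19 of 23 could be tested, 9 with a positive and 10 with a negative log2 difference. Cd38, an ectoenzyme that hydrolyses NAD, had 16, 27 and 17 normalized counts in the CtrlCre samples and 50, 42 and 43 in the Cpt1bcKO samples. The groups stood apart, with a log2 difference of 1.16 and an interval of 0.51 to 1.82 (unadjusted P = 0.00266, limma adjusted P = 0.0958). Cd38 is also made by leukocytes and endothelial cells. The 8 leukocyte markers summed to 96 to 144 in CtrlCre and 114 to 134 in Cpt1bcKO samples. All 8 endothelial markers had a positive log2 difference, beside 5655 of the 11364 genes tested. Of the 8, 1 passed an unadjusted P under 0.05, beside 6.66% higher among all genes tested. Endothelial sums overlapped between the genotypes, with 1464, 2785 and 3116 in CtrlCre samples 1, 2 and 3 and 3257, 3287 and 2832 in Cpt1bcKO samples. CtrlCre sample 1 was the lowest. The part of these cells in the Cd38 values was not tested.

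Aox1, an aldehyde oxidase that can oxidize methylated nicotinamide, had 192, 276 and 147 normalized counts in the CtrlCre samples and 327, 431 and 436 in the Cpt1bcKO samples. The log2 difference was 0.99, with an interval of 0.478 to 1.501 (unadjusted P = 0.00147, limma adjusted P = 0.0687). Art3, of the family of ADP-ribosyltransferases, had 1153, 795 and 614 against 516, 469 and 467, with a log2 difference of −0.77 (unadjusted P = 0.00401, limma adjusted P = 0.121). In both genes every Cpt1bcKO sample lay on the same side of all controls. Aox1 passed without CtrlCre sample 2 (limma adjusted P = 0.0439), without Cpt1bcKO sample 1 (limma adjusted P = 0.0332) and with scaling to the total without mitochondrial and rRNA genes (limma adjusted P = 0.0420). Parp1, the main poly(ADP-ribose) polymerase of the nucleus and a large consumer of NAD, had 281, 223 and 309 against 243, 258 and 251, with a log2 difference of −0.10 (limma adjusted P = 0.836).

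The zinc-dependent deacetylases, which act on acetyl-lysine without NAD, offer a second family of similar function. Of the 11, all of which could be tested, 1 was called lower and none higher, against 0.906% and 0.66% of all genes tested, and 2 passed at an unadjusted P, against 13.9%. Hdac9, a class IIa member that binds MEF2 factors in muscle, had 323, 215 and 309 normalized counts in the CtrlCre samples and 128, 157 and 116 in the Cpt1bcKO samples. It fell by 1.06 on the log2 scale (interval −1.52 to −0.61, limma adjusted P = 0.0320), with no overlap of the groups. The call was lost without CtrlCre sample 1 (limma adjusted P = 0.112), CtrlCre sample 3 (limma adjusted P = 0.138), Cpt1bcKO sample 2 (limma adjusted P = 0.0813) or Cpt1bcKO sample 3 (limma adjusted P = 0.0879), with log2 differences of −0.95 to −1.25 over the 6 fits that each left out 1 sample. It was also lost without both samples numbered 1 (limma adjusted P = 0.0791), with scaling to the total without mitochondrial and rRNA genes (limma adjusted P = 0.0539) and with 1 prior variance for all genes (limma adjusted P = 0.129). Hdac2 had 591, 556 and 679 against 483, 450 and 518 (log2 difference −0.33, limma adjusted P = 0.348), and Hdac5 had 335, 239 and 275 against 218, 207 and 224 (log2 difference −0.37, limma adjusted P = 0.361). Leaving out 1 sample gave −0.49 (CtrlCre sample 2) to −0.24 (CtrlCre sample 1) for Hdac5. The median log2 difference was −0.07 over the 11 zinc-dependent enzymes and 0.13 over the 7 sirtuins, and the difference between the families was not tested.

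The transcripts of proteins that sirtuins act on were counted in 2 lists. Of 27 genes for mitochondrial substrates that could be tested, none was called at an adjusted P by limma and 4 passed at an unadjusted P, a share near the 13.9% of all genes tested. The median log2 difference was −0.15. Aldh2, the mitochondrial aldehyde dehydrogenase, had 497, 415 and 461 normalized counts in the CtrlCre samples and 318, 278 and 256 in the Cpt1bcKO samples (log2 difference −0.69, limma adjusted P = 0.0591), and without Cpt1bcKO sample 1 it passed (−0.77, limma adjusted P = 0.0328). Aldh2 passed in 2 of 15 alternatives, and with 1 sample left out its limma adjusted P reached 0.249. Pdhx, a subunit of the pyruvate dehydrogenase complex, had 866, 873 and 744 against 1176, 1067 and 1137 (log2 difference 0.45, limma adjusted P = 0.162). Hadhb, the thiolase subunit of the trifunctional protein of fatty acid oxidation, had 2600, 2942 and 2131 against 3420, 4176 and 3063 (log2 difference 0.47, limma adjusted P = 0.239). These 3 were named for the lowest P values of the list, and the groups did not overlap in them. In the whole list 3 genes lay above and 3 below their controls without overlap, beside 18.7% of all genes tested. RNA levels do not measure the acylation of these proteins.

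Of 29 genes for nuclear and cytosolic substrates and partners that could be tested, none was called at an adjusted P by limma and 4 passed at an unadjusted P, a share near the 13.9% of all genes tested. The median log2 difference was 0.01. Hif1a, the oxygen-regulated transcription factor subunit that Sirt1 and Sirt6 can act on, had 1014, 912 and 704 normalized counts in the CtrlCre samples. In the Cpt1bcKO samples it had 1784, 1211 and 1084, all above the controls (log2 difference 0.62, unadjusted P = 0.0136, limma adjusted P = 0.208). Without Cpt1bcKO sample 1, its highest, the difference was 0.40. Per2, a clock protein that Sirt1 deacetylates, had 65, 64 and 51 against 23, 26 and 53, with a log2 difference of −0.89 (limma adjusted P = 0.248). Cpt1bcKO sample 3 lay among the controls of Per2, and without it the difference was −1.25 (limma adjusted P = 0.0666). Without Cpt1bcKO sample 1 it was −0.67 (limma adjusted P = 0.285), and without both samples numbered 1 it was −0.61 (limma adjusted P = 0.423). Foxo3 had 736, 704 and 521 against 508, 434 and 529 (log2 difference −0.40, limma adjusted P = 0.324). Nampt is itself a known target of the circadian clock. The clock genes Arntl and Clock of the same list had positive log2 differences, and the groups overlapped in both. Arntl had 10, 9 and 30 against 36, 53 and 16 (log2 difference 1.11, limma adjusted P = 0.394). Clock had 395, 510 and 470 against 683, 616 and 404 (log2 difference 0.28, limma adjusted P = 0.587). The hour at which hearts were taken is not given in the sources used here, and its part in the values of Nampt and these clock genes was not tested.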

How the data were processed

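RNA from isolated CMs was made into SMARTer stranded total RNA libraries and sequenced single-end. Per the submitters' processing notes and the study's methods, reads were checked with FastQC 0.11.8, trimmed with Trimmomatic 0.36, aligned with STAR 2.5.4b to mm10 (GRCm38.p5) and counted with featureCounts 1.6.0, leaving out reads on several genes. The annotation release and the strand setting are not given in the sources used here. The deposited values are DESeq2 1.14.1 normalized counts rounded to whole numbers by the authors, and were handled as a score, not as raw counts, so no count model was run. Further deposited columns hold the authors' group means, fold changes and P values and were not used.

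Genes that reached a value of 10 in 3 or more samples were tested with limma 3.58.1 (R 4.3.3, trended prior variance) on log2(value + 1), Cpt1bcKO against CtrlCre without a block, with Benjamini-Hochberg adjustment over 11364 genes, and a call was an adjusted P under 0.05. Fold changes on this scale understate changes of low genes. The script was tested on simulated data. Exon lengths and overlaps came from GENCODE vM21 and similar transcripts from blastn 2.17.0. The members and lists were chosen with earlier results of these data known. Named were all members, Cpt1b, Nnt, the called genes of each list (or the lowest P values, up to 3) and the 5 genes most like Nampt. Also given, chosen for their role or after their values were seen, were Nmnat1, Nmnat2, Nmrk1, Nt5e, Pnp, Parp1, Arntl, Clock, Atcayos, Xist, Ddx3y, Col1a1, Lum, Tnni3, Pln and Mybpc3. The alternatives were other pseudocounts, filters, scalings and prior, a replicate block, and leaving out samples.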

Additional observations from a re-analysis of the deposited data

How the results depend on the processing

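Under 15 alternatives the log2 difference of Nampt ran from −1.21 to −0.83 and its unadjusted P stayed under 0.05 in each. It was no longer called, which left 0 members called, after scaling to the total without mitochondrial and rRNA genes (−0.89, limma adjusted P = 0.0562) and with 1 prior variance for all genes (−1.003, limma adjusted P = 0.153). Leaving out 1 sample at a time gave −1.21 to −0.83 for Nampt and 0 to 1 members called. Cpt1b was lost with 1 prior variance (−2.27, limma adjusted P = 0.0563). No sirtuin reached an unadjusted P under 0.05 in any fit. With 1 sample left out at a time, signs reversed for Sirt3 (−0.064 without Cpt1bcKO sample 2 to 0.27), Sirt4 (−0.0059 without Cpt1bcKO sample 3 to 0.38), Sirt7 (−0.19 without Cpt1bcKO sample 3 to 0.47), Nmnat3 (−0.36 without CtrlCre sample 1 to 0.67) and Nnt (−0.22 without Cpt1bcKO sample 3 to 0.72). Without both samples numbered 1, Sirt3 was at −0.014 and Nmnat3 at −0.36. Their causes were not tested. A filter of 10 in every sample removed Sirt6 and Sirt7 from the test.

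Over the 6 context lists, 1 of 102 genes was called and 18 passed at an unadjusted P, beside 1.57% and 13.9% of all genes tested. With 1 prior variance, and without both samples numbered 1, 0 were called, and leaving out 1 sample at a time gave 0 to 4. The total without mitochondrial and rRNA genes turned the 18 from 7 higher and 11 lower to 14 higher and 6 lower of 20. Over all genes the count of calls was 178 and ran from 41 with 1 prior variance to 603 with the replicate block.

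Sample numbers are shared between the genotypes, and deviations of same-numbered samples correlated at 0.376, 0.255 and 0.0684. CtrlCre sample 3 and Cpt1bcKO sample 3 each correlated better with the other genotype's sample 2 (0.119 and 0.147), so the numbers were not taken as pairs, although both samples numbered 1 share the Xist and Ddx3y levels given above. With the replicate block the adjusted P of Nampt was 0.00235 by limma, and in the lists 36 genes passed at an unadjusted P and 9 were called: Hdac9, Gja1, Aox1, Art3, Aldh2, Pdhx, Hadhb, Hif1a and, outside the rule for named genes, Atp5o (limma adjusted P = 0.0112 to 0.0476). Under that block 20.8% of all genes tested passed at an unadjusted P and 5.31% were called. Among the members the error was largest for Nmnat3 (SE 0.481), Sirt7 (0.463), Sirt6 (0.419) and Sirt4 (0.358).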
